A study of Mus musculus with 6 samples.

Results

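The named ribosomal protein pseudogenes are genes whose mouse symbol joins the symbol of a ribosomal protein gene to the ending "-ps" and, in most, a number. Of the 57010 gene IDs in the count matrix, 300 carried such a symbol. Rps2-ps10 and Rps26-ps1 were set aside by name, 95 others had no count in any library, and the remaining 203, each with at least 1 count, make up the set. The stem of each symbol names the parent gene, and the 203 pseudogenes have 57 parents. Gastrocnemius muscle was studied by RNA sequencing in 3 mutant mice homozygous for the Dysfprmd allele (strain B6.A-Dysfprmd/GeneJ, called BLAJ) and in 3 wild-type C57BL/6 control mice. All 6 animals were untreated and 3 months old. Mutant replicates 1 and 2 were female, while mutant replicate 3 and the 3 controls were male. Dysfprmd is a germline allele that came from strain A/J, so dysferlin, a protein that takes part in repair of the muscle fibre membrane, is lacking in every cell type and not in muscle alone.

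A processed pseudogene arises when a spliced messenger RNA is copied back into DNA and inserted elsewhere in the genome. Such a copy has no introns and usually no promoter of its own, and it gathers substitutions over time. Ribosomal protein genes, which are transcribed at high levels in nearly all cells, have left many copies in mammalian genomes. A recent copy can be so close to its parent that a short read from either may match both, and a read counted for the copy need not have been transcribed from it. In the counts used here, read pairs that matched several places were counted for no gene.

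The deposited counts per library summed to 36920716, 35042245 and 40230648 read pairs in mutant replicates 1, 2 and 3, and to 40367595, 43733641 and 40990024 in control replicates 1, 2 and 3. Dysf checked the genotype labels. It stood at 15.8, 14.7 and 20.3 CPM in the mutants, against 72.3, 99.8 and 145 CPM in the controls (CPM, the count scaled to a common size of library). Its log2 fold change was -2.64 with a standard error (SE) of 0.28 (edgeR adjusted p = 0.0249). The groups did not overlap. No call remained once sex entered the fit (-2.38, adjusted p = 0.546), or without mutant replicate 1, 2 or 3 (-2.60, -2.55 and -2.80, adjusted p = 0.228, 0.178 and 0.0637), although the fold change stayed of like size. The strain label of the controls met contrary values. Ifi202b, which C57BL/6 mice do not express, stood at 0 CPM in the 3 mutants, against 7.69, 1.02 and 2.62 CPM in control replicates 1, 2 and 3. H2-Ea-ps, also silent in C57BL/6, stood at 0.026 CPM or less in the mutants, against 2.37, 3.44 and 3.13 CPM in the controls. Strain and loss of dysferlin therefore cannot be told apart in any difference given here. In whole muscle, fewer cells of a type and less RNA per cell cannot be told apart either. Control replicate 1 also had the largest share of read pairs that matched several places, 9.78% against 5.83% to 7.52% in the other 5 libraries. Of 10 skeletal muscle genes, all passed the filter on low counts and none was called. The giant sarcomere protein gene Ttn, for example, stood at 5707, 7356 and 7545 CPM in the mutants, against 9621, 9109 and 7682 CPM in the controls (adjusted p = 0.804).

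Among the members, 194 were annotated as processed pseudogenes, 4 as transcribed processed pseudogenes and 5 as protein-coding (Rpl10-ps3, Rpl36a-ps1, Rpl9-ps6, Rps12-ps3 and Rpl9-ps1). They lay on 20 chromosomes, 16 of them on the X chromosome. No other annotated gene covered 130 of them, 26 overlapped a gene on the same strand and 51 a gene on the opposite strand. Aligned to the transcripts of the parent, 201 members had an identity of 78.6% to 100%, with a median of 97.4%, and Rpl13-ps1 and Rps7-ps2 gave no alignment. Every stretch of 61 bases, the length of 1 read, was also present in the parent for 11 members, and no such stretch was present there for 40. These classes bear on how many reads of a copy can be told from reads of its parent.

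Much of what follows turns on copies of Rpsa, Rps15a, Rpl15 and Rpl3. A stretch of 90 bases of each is shown beside the same stretch of the parent, to show which bases tell them apart. It is the ungapped coding stretch with the most differing bases summed over the copies shown, so it is not a typical stretch. The sequences are GENCODE M21 transcripts (build GRCm38), written 5′ to 3′ on the strand of the gene. Capitals in a pseudogene mark bases that differ from the parent, and capitals in a parent mark positions at which any pseudogene shown beside it differs. Rpsa codes for a protein of the small ribosomal subunit that is also known as the laminin receptor. Rpsa-ps10 (ENSMUSG00000047676, chromosome 3, minus strand) and Rpsa-ps9 (ENSMUSG00000082895, chromosome 2, plus strand) share 2 bases that Rpsa (chromosome 9, plus strand) does not have in this stretch.
Rpsa-ps10: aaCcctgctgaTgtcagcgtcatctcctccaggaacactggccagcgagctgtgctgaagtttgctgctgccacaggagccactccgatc
Rpsa-ps9: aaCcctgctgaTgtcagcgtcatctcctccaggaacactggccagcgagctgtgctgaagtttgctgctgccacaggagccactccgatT
Rpsa: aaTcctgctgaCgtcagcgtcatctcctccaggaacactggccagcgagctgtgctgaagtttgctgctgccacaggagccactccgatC

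Rpsa-ps10 carried 6 substitutions over its 885 bases (C25A, T210C, C219T, C345G, C696T and G858A, with the parent's base first and positions counted from 1 at the annotated 5′ end of the pseudogene). Its longest frame from an ATG held 295 codons, as in Rpsa. Rpsa-ps9 carried 15 substitutions and 1 gap, and its longest frame held 74 codons.

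Rps15a codes for another protein of the small subunit. Rps15a-ps7 (ENSMUSG00000081087, chromosome 2), Rps15a-ps6 (ENSMUSG00000083022, chromosome 11) and Rps15a-ps8 (ENSMUSG00000084403, chromosome 4) lie on the minus strand, as does Rps15a on chromosome 7, and all are shown from the start codon.
Rps15a-ps7: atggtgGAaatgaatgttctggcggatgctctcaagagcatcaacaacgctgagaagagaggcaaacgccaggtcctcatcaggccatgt
Rps15a-ps6: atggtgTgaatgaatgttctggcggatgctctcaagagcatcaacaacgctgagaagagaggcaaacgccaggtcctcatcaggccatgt
Rps15a-ps8: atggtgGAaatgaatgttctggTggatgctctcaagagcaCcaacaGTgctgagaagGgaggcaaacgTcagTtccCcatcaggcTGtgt
Rps15a: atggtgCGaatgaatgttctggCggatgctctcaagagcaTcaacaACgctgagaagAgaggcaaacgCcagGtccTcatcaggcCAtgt

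Rps15a-ps7 and Rps15a-ps8 share C7G and G8A. In Rps15a-ps6, C7T turns the third codon into a stop codon, and its longest frame from a later ATG held 127 codons, against 130 in Rps15a. Rps15a-ps8 is the divergent member of the trio, with 30 substitutions over 387 bases, and 1.53% of its 61-base stretches were present in the parent, against 53.6% for Rps15a-ps7 and 47.1% for Rps15a-ps6.

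Rpl15 and Rpl3 code for proteins of the large subunit, and Rpl3 lies close to the site where peptide bonds are formed. Rpl15-ps2 (ENSMUSG00000098915, chromosome 9, plus strand) had 8 substitutions and Rpl3-ps1 (ENSMUSG00000084349, X chromosome, plus strand) had 2, C58A and T787C. Rpl15 lies on chromosome 14 and Rpl3 on chromosome 15, both on the minus strand.
Rpl15-ps2: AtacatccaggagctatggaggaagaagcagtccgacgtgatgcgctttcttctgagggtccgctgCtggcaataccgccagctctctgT
Rpl15: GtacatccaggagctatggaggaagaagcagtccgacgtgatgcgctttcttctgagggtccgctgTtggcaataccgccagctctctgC
Rpl3-ps1: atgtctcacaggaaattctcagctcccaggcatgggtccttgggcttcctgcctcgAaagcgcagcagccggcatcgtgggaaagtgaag
Rpl3: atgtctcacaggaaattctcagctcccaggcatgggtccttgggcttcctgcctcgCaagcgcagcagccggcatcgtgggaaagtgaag

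The longest frame of Rpl3-ps1 held 403 codons, as in Rpl3, and that of Rpl15-ps2 held 186, against 204 in Rpl15. No peptide was measured here, so an open frame describes the sequence alone.

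Counts were low and uneven across the set. The 203 members held 18583 counts over 6 libraries, 90 of them had 1 to 9 counts in all, 83 had 10 to 99, 29 had at least 100 but under 1000, and Rpsa-ps10 had 7096, or 38.2% of the counts of the set. The 5 members with the most counts held 52.6%, and the median member had 15. With library totals of this size, 3 counts correspond to 0.068 to 0.0827 CPM, so most members sat near the floor of detection. Between 124 and 140 members had a count in a mutant library and between 148 and 159 in a control library. Every control total was also above every mutant total, and detection at such low counts depends on depth. The same share over all genes was not computed, so these ranges are not read as a group difference.

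Relative to their parents, the summed pseudogenes took a larger share in control replicates 2 and 3 than in the other 4 libraries. The summed counts were 3.89, 3.32 and 3.85 per 1000 parent counts in mutant replicates 1, 2 and 3, against 4.45, 17.5 and 12.02 in control replicates 1, 2 and 3. Control replicate 1 was nearer to the mutants than to its own group. The deposited sample names of control replicates 2 and 3 carry the word black, and that of control replicate 1 does not. What the word stands for is not stated in the labels, and its bearing on the counts was not tested. Rpsa-ps10 made up 3.50%, 4.04% and 4.09% of the summed pseudogene counts in the mutants, against 3.30%, 59.9% and 43.8% in the controls. Without it the shares were 3.76, 3.19 and 3.70 per 1000 parent counts in the mutants, against 4.31, 7.01 and 6.76 in the controls, and the order of the libraries was the same. A few members carried most of the difference. Without Rpsa-ps10 and 8 others that were high in control replicate 2 or 3 (Rpsa-ps9, Rps15a-ps6, Rps15a-ps7, Rps15a-ps8, Rpl15-ps2, Rpl3-ps1, Rpl14-ps1 and Rps19-ps6, chosen after their values were seen), the other 194 had 3.34, 2.85 and 3.32 per 1000 parent counts in the mutants, against 3.56, 3.89 and 3.67 in the controls. A sum over members chosen with results known was not tested.

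**Figure D1:**
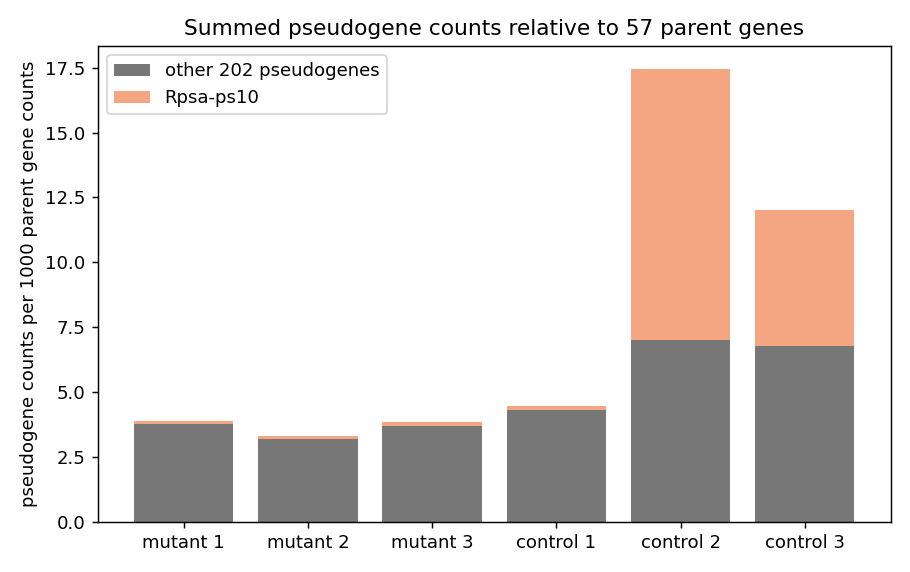
Summed pseudogene counts per 1000 counts of the 57 parent genes (y axis) in each library (x axis, mutants on the left). The orange part is Rpsa-ps10 and the grey part the other 202 members. Mutants stand between 3.32 and 3.89, and the controls at 4.45, 17.5 and 12.02.

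Across all genes, 15589 passed the filter on low counts, among them 49 of the 203 members. The edgeR quasi-likelihood test, adjusted over all genes tested, called none of the 49 members, while the background was 0.199% of all genes tested, 0.186% lower and 0.0128% higher in mutants. With no filter on low counts all 203 members entered the test and 0 were called, against a background of 0.259%. At an unadjusted p under 0.05 stood 9 members, 8 lower and 1 higher in mutants, against a background of 6.94%, of which 3.69% were lower and 3.25% higher. DESeq2 called 4 of the 49 (Rpl3-ps1, Rps15a-ps7, Rpsa-ps10 and Rpsa-ps9) against a background of 1.18%. Every mutant lay below every control in 7 members (background 6.09%) and above every control in 1 (background 5.97%). The fold change was below 0 in 39 of 49 members, where 50.2% of all genes tested lay below 0. It was also below 0 in 48 of the 57 parents and in 66 of 78 tested cytosolic ribosomal protein genes. The lean is therefore not particular to the pseudogenes. The median log2 fold change of the 49 was -0.27, against -0.15 for the parents and -0.0015 over all genes tested. Because a member had to pass the filter, these counts describe the more abundant members and not the set. The 1 member above every control, Rps2-ps6, passed the filter through its mutant libraries only. The authors' deposited table listed 113 members, of which 5 had an adjusted p below 0.05, against a background of 0.998% in that table. In the authors' deposited table these were Rpl3-ps1 (log2 fold change -3.91), Rps15a-ps7 (-3.23), Rpsa-ps10 (-5.26), Rps15a-ps8 (-6.76) and Rpl15-ps2 (-5.76).

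**Figure D2:**
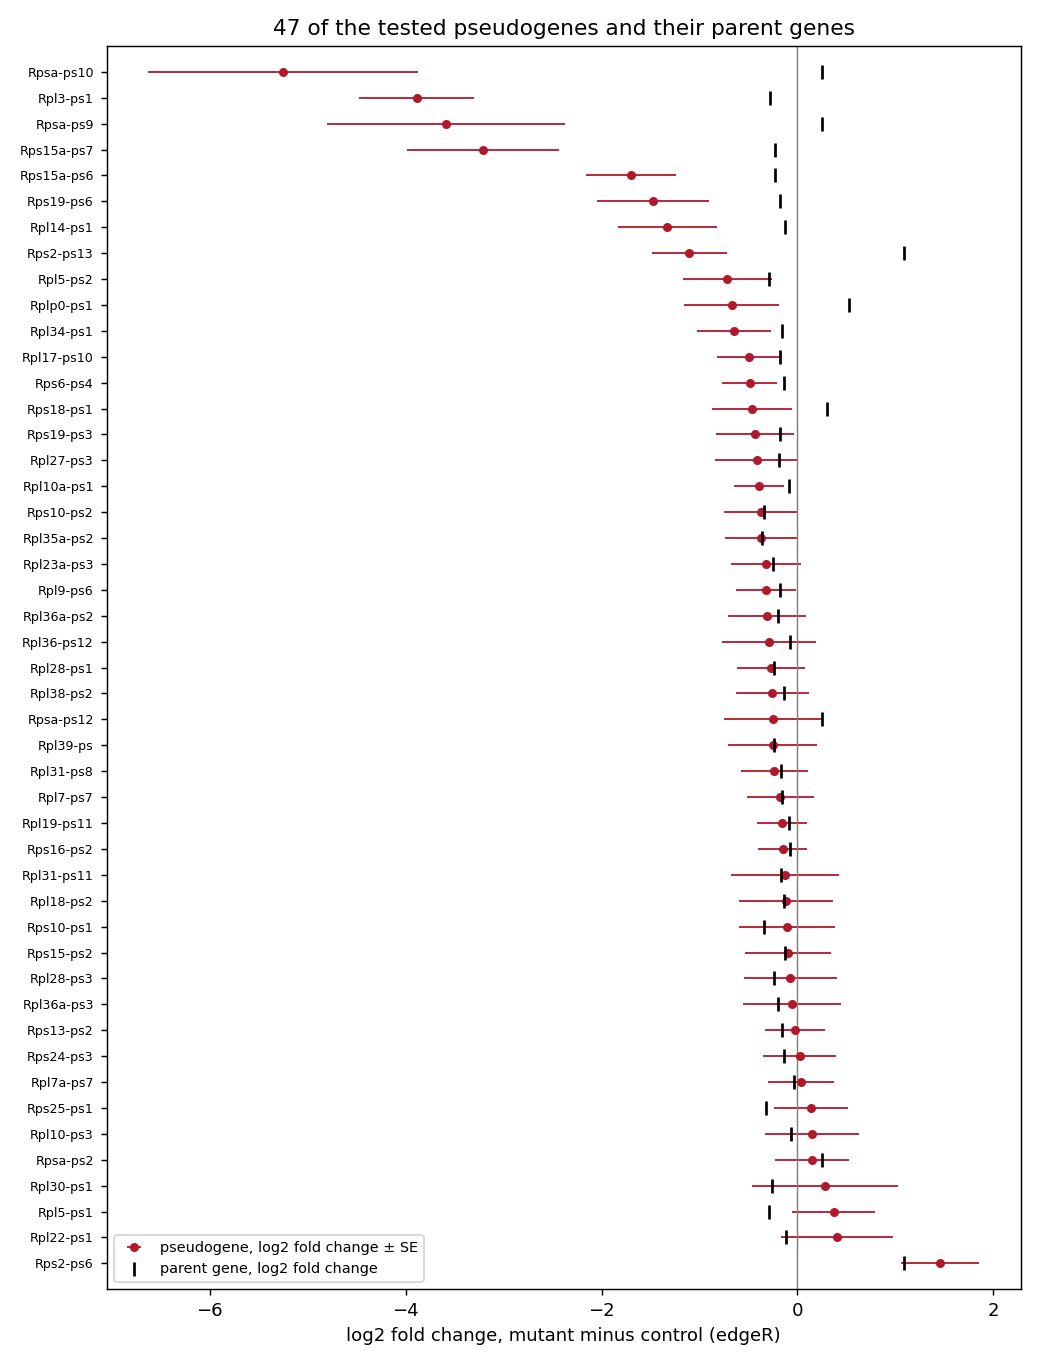
The log2 fold change of mutant minus control (x axis) for 47 of the tested pseudogenes (y axis, lowest at the top), as red points with the standard error as bars, and for the parent of each as a black tick. The pseudogenes run from -5.25 for Rpsa-ps10 to 1.46 for Rps2-ps6, and 38 of 47 points lie left of 0.

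Rpsa-ps10 had the highest mean CPM over the 6 libraries, and also per length, with 31.4 CPM per kb, against 5.40 CPM per kb for Rps16-ps2. That rank came from control replicates 2 and 3, and in the other 4 libraries Rps16-ps2, which is shorter, had the higher CPM. It stood at 1.43, 1.27 and 1.55 CPM in mutant replicates 1, 2 and 3, against 1.498, 115 and 45.9 CPM in control replicates 1, 2 and 3. Control replicate 1 fell among the mutants, so the groups overlapped, and 2 controls stood far above the other 4 libraries. The log2 fold change was -5.25 (SE 1.38, edgeR adjusted p = 0.509). Without control replicate 1, which stood with the mutants, it was -5.83 (edgeR adjusted p = 0.0135), in a fit that called 3 of 54 tested members (background 0.238%). Without control replicate 2 or 3 it was -4.06 and -5.37 (edgeR adjusted p = 0.532 and 0.667). With a mutant left out the edgeR adjusted p was 0.611 or more. Against control replicate 1 alone, a comparison added after the data were seen, the change was -0.079.

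Its parent Rpsa stood at 496, 448 and 523 CPM in the mutants, against 514, 342 and 380 CPM in the controls (log2 fold change 0.25, SE 0.19, edgeR adjusted p = 0.859). The 2 libraries in which Rpsa-ps10 was high were those in which Rpsa was low. The sum of Rpsa and its 7 counted pseudogenes was 498, 450 and 526 CPM in the mutants, against 516, 464 and 429 CPM in the controls, and spanned less than Rpsa alone. The pseudogenes made up 0.552%, 0.417% and 0.532% of that sum in the mutants, against 0.474%, 26.2% and 11.4% in the controls. Whether reads of Rpsa itself were placed at Rpsa-ps10 in these 2 libraries was not tested.

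Rpsa-ps9 followed the same libraries at a lower level. It stood at 0.291, 0.055 and 0.356 CPM in the mutants, against 0.150, 5.89 and 2.57 CPM in the controls (log2 fold change -3.59, SE 1.22, edgeR adjusted p = 0.654). The other 5 copies of Rpsa did not show this pattern. Rpsa-ps2 had 13, 10 and 15 counts in the mutants, against 16, 10 and 11 in the controls, and Rpsa-ps12 had 10, 8 and 10 counts in the mutants, against 8, 22 and 7 in the controls. The remaining 3 had 8 to 29 counts in all.

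Rps15a had 3 copies with the same pair of high controls. Rps15a-ps7 stood at 0.317, 0.138 and 0.178 CPM in the mutants, against 0.400, 2.90 and 2.64 CPM in the controls. The groups did not overlap, although control replicate 1 lay much closer to the mutants than to the other 2 controls (log2 fold change -3.21, SE 0.78, edgeR adjusted p = 0.438). Without control replicate 1 the change was -3.70 (edgeR adjusted p = 0.0314). Without control replicate 2 or 3 it was -2.83 and -2.96 (edgeR adjusted p = 0.451 and 0.639). Rps15a-ps6 stood at 0.476, 0.551 and 0.611 CPM in the mutants, against 0.774, 2.45 and 2.11 CPM in the controls (log2 fold change -1.70, SE 0.46, edgeR adjusted p = 0.504). The divergent Rps15a-ps8 had 0 counts in all 3 mutants, against 1, 37 and 28 counts in the controls. It did not pass the filter. Set against a floor of 3 counts over the mutant group, it was at least 20.2-fold lower in mutants than in the pooled controls. That bound rests on the 37 and 28 counts in 2 libraries and does not hold for control replicate 1, with 1 count. Fitted with no filter, the log2 fold change was -7.39 (SE 2.26, edgeR adjusted p = 0.793). The other 5 copies of Rps15a held 1 to 46 counts each. Rps15a itself stood at 132, 123 and 138 CPM in the mutants, against 149, 165 and 148 CPM in the controls (log2 fold change -0.23, SE 0.12, edgeR adjusted p = 0.790). Its 8 copies together made up 1.14%, 0.801% and 0.896% of the summed CPM of Rps15a and copies in the mutants, against 1.15%, 4.01% and 3.82% in the controls.

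Rpl15-ps2 was also left out by the filter. It stood at 0.106, 0.028 and 0.051 CPM in the mutants, which is 4, 1 and 2 counts, against 0.050, 3.90 and 6.00 CPM in the controls. Here too control replicate 1 stood with the mutants, and its log2 fold change, fitted with no filter, was -5.68 (SE 1.90, edgeR adjusted p = 0.793). Without control replicate 1 it passed the filter, with a change of -6.26 (edgeR adjusted p = 0.0116). Rpl15 stood at 144, 135 and 128 CPM in the mutants, against 153, 136 and 145 CPM in the controls, which overlapped.

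Rpl3-ps1 had the smallest adjusted p of the set and differed from the members above in that all 3 controls were high. It stood at 0.661, 0.138 and 0.534 CPM in the mutants, against 3.70, 9.24 and 6.99 CPM in the controls, with no overlap (log2 fold change -3.89, SE 0.59, edgeR adjusted p = 0.106). It lies on the X chromosome, and the male mutant stood at 0.534 CPM, between the 2 females. In males only the change was -3.63 (edgeR adjusted p = 0.998, with 1 mutant). Against control replicate 1 alone, a comparison added after the data were seen, it was -3.04. DESeq2 gave -3.91 (adjusted p = 1.41e-10). The parent Rpl3 stood at 64.5, 53.8 and 68.7 CPM in the mutants, against 56.6, 125 and 44.6 CPM in the controls (log2 fold change -0.28, SE 0.38, edgeR adjusted p = 0.937). Unlike Rpsa and its copy, Rpl3 was highest in the same library as Rpl3-ps1, control replicate 2. The copies of Rpl3 made up 1.17%, 0.256% and 0.953% of the summed CPM of Rpl3 and copies in the mutants, against 6.24%, 6.99% and 13.6% in the controls.

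**Figure D3:**
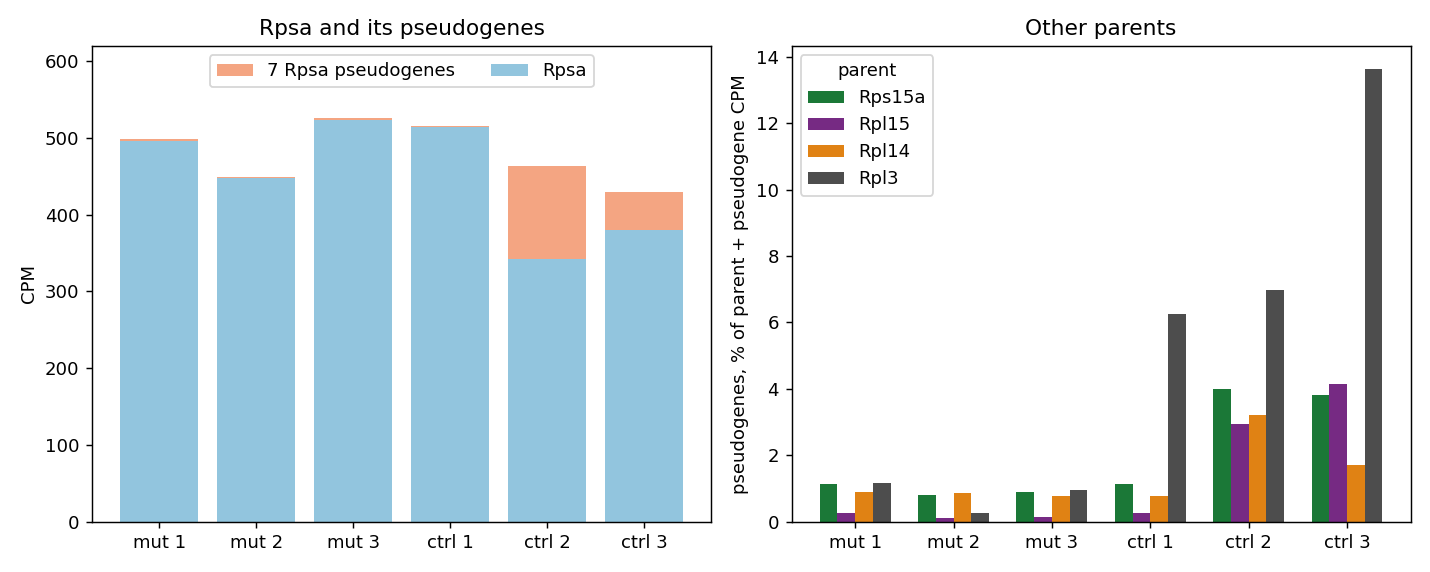
Left, CPM (y axis) of Rpsa in blue with its 7 pseudogenes in orange on top, by library (x axis, mutants on the left). Right, the copies of Rps15a, Rpl15, Rpl14 and Rpl3 as a percent of the CPM of parent and copies together. The Rpsa copies reach 26.2% and 11.4% in control replicates 2 and 3, and the Rpl3 copies 6.24% to 13.6% in the 3 controls.

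Of the other abundant members, Rpl14-ps1, a copy of a large-subunit gene, stood at 2.04, 1.79 and 1.58 CPM in the mutants, against 1.92, 8.16 and 3.48 CPM in the controls (log2 fold change -1.33, SE 0.51, edgeR adjusted p = 0.677). Control replicate 2 was again the highest library, and without it the change was -0.59 (edgeR adjusted p = 0.746). Its parent Rpl14 stood at 224, 206 and 204 CPM in the mutants, against 245, 246 and 200 CPM in the controls.

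The remaining 5 of the 10 most abundant members varied at most 2.07-fold between libraries. Rps16-ps2 stood at 2.25, 2.23 and 2.29 CPM in the mutants, against 2.85, 2.81 and 1.86 CPM in the controls (log2 fold change -0.15, SE 0.25, edgeR adjusted p = 0.951). Rpl10a-ps1 stood at 1.48, 1.63 and 1.78 CPM in the mutants, against 2.02, 2.63 and 1.78 CPM in the controls (log2 fold change -0.40, SE 0.26, edgeR adjusted p = 0.832). Rps6-ps4 stood at 1.67, 1.65 and 1.17 CPM in the mutants, against 1.62, 2.38 and 2.29 CPM in the controls (log2 fold change -0.49, SE 0.28, edgeR adjusted p = 0.812). These 3 are identical to Rps16, Rpl10a and Rps6 over every 61-base stretch and keep full frames of 146, 217 and 249 codons. Rpl9-ps6, annotated as protein-coding, averaged 1.47 ± 0.339 CPM in the mutants and 1.83 ± 0.447 CPM in the controls (SD, n = 3 each; edgeR adjusted p = 0.898). Rpl19-ps11 averaged 1.33 ± 0.055 CPM in the mutants and 1.48 ± 0.252 CPM in the controls (SD, n = 3 each; edgeR adjusted p = 0.951).

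**Figure D4:**
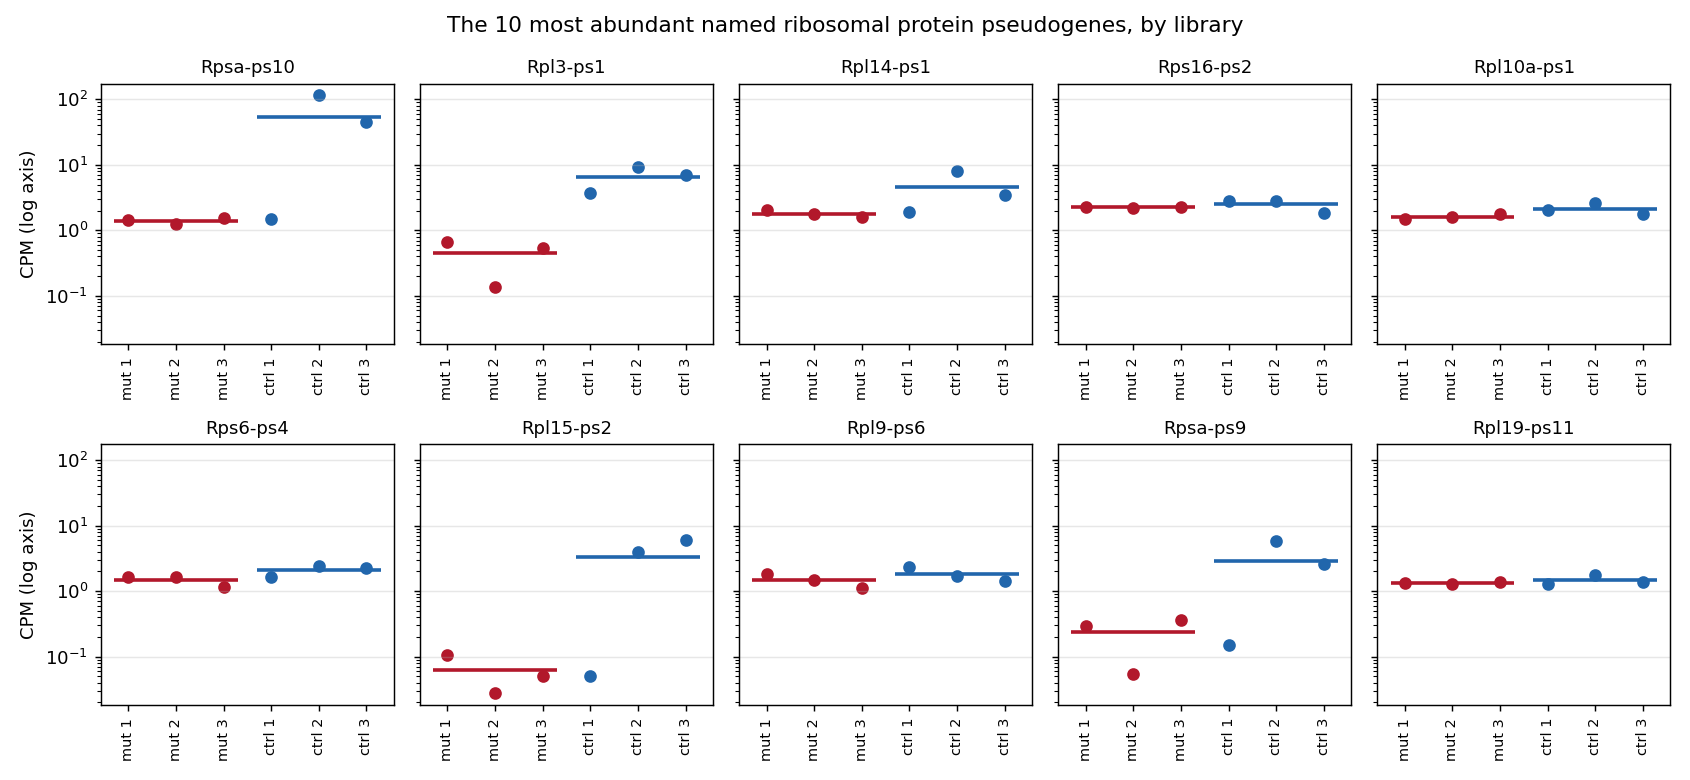
CPM on a log axis (y axis) of the 10 members with the highest mean CPM, by library (x axis, mutants in red on the left, controls in blue), with lines at the group means. Rpsa-ps10, Rpl15-ps2 and Rpsa-ps9 are high in control replicates 2 and 3 and not in control replicate 1, Rpl3-ps1 is high in all 3 controls, and Rps16-ps2 stays between 1.86 and 2.85 CPM.

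Further down, Rps19-ps6 stood at 0.449, 0.496 and 0.407 CPM in the mutants, against 0.574, 0.793 and 2.42 CPM in the controls (log2 fold change -1.48, SE 0.57, edgeR adjusted p = 0.677). There control replicate 3 alone stood apart. Rps2-ps13, on the X chromosome, stood at 0.370, 0.331 and 0.204 CPM in the mutants, against 0.849, 0.544 and 0.559 CPM in the controls (log2 fold change -1.10, SE 0.39, edgeR adjusted p = 0.655). Rpl5-ps2 overlapped between the groups, and its log2 fold change was -0.71 (SE 0.45, edgeR adjusted p = 0.832).

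Rps2-ps6 was the 1 tested member in which every mutant lay above every control. It stood at 0.555, 0.469 and 0.331 CPM in the mutants, against 0.200, 0.136 and 0.153 CPM in the controls (log2 fold change 1.46, SE 0.40, edgeR adjusted p = 0.508). Its counts were few, 21, 17 and 13 in the mutants against 8, 6 and 6 in the controls. Only the mutants reached the minimum count of 10 of the filter. Rps2-ps6 thus entered the test through the group in which it was high, which favours such a separation. Its parent Rps2, a small-subunit protein gene, stood at 723, 649 and 726 CPM in the mutants, against 422, 394 and 169 CPM in the controls (log2 fold change 1.09, SE 0.33, edgeR adjusted p = 0.569). Per 1000 counts of Rps2, Rps2-ps6 had 0.768, 0.722 and 0.455 in the mutants, against 0.473, 0.345 and 0.902 in the controls, and on that scale the groups overlapped. Of the 7 counted copies of Rps2 these 2 were tested. Rps2-ps13 stood at 0.512, 0.510 and 0.280 per 1000 counts of Rps2 in the mutants, against 2.01, 1.38 and 3.31 in the controls. Beside them, Rps2-ps10, which is outside the set, stood at 0.925, 0.469 and 0.814 CPM in the mutants, against 80.5, 78.5 and 151 CPM in the controls. In all, 10 tested members had a fold change above 0, among them Rpl22-ps1 (0.40), Rpl5-ps1 (0.37) and Rpl30-ps1 (0.28), these 3 with overlapping groups and edgeR adjusted p between 0.916 and 0.968.

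Library by library, control replicate 2 had the highest CPM in 24 of the 49 tested members, where it was the highest library in 19.8% of all genes tested. Control replicate 1 was highest in 9 members (19.8% of genes), control replicate 3 in 4 (15.6%), and mutant replicates 1, 2 and 3 in 8, 1 and 3 (12.5%, 13.2% and 19.1%). Control replicates 2 and 3 each stood over 2-fold above the highest mutant in 6 members, against 2.55% and 1.48% of all genes tested, and control replicate 1 in 2 members, against 2.01%. Mutant replicates 1, 2 and 3 stood over 2-fold above the highest control in 1, 1 and 0 members (0.776%, 0.757% and 1.09% of genes). By CPM the highest library was a median of 2.50 times the lowest over the 49 members, from 1.32 for Rps13-ps2 to 107 for Rpsa-ps9, and over 4 times in 13. For their 37 parents the same median was 1.35.

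Closeness to the parent went with the number of counts and, by a median ratio of libraries, with evenness. The 13 members identical to the parent over the aligned bases had a median of 124 counts, the 40 at 99% to under 100% had 45, the 59 at 97% to under 99% had 22, and the 89 under 97% had 4. Of these, 10, 15, 16 and 8 passed the filter. The log2 fold changes of the identical class ran from -0.49 to 0.14, those of the class from 99% to under 100% from -5.25 to 0.28, those from 97% to under 99% from -3.59 to 0.37, and those under 97% from -0.67 to 1.46. The members with high values in control replicates 2 and 3 had an identity of 98.2% or more to the parent, apart from Rps15a-ps8 at 92.2%. The highest library was a median of 1.68, 2.26, 2.63 and 2.97 times the lowest in these classes, for tested members and counts per 1000 parent counts. The 2 tested copies of Rps10 are included, although Rps10 itself had only 6 to 17 counts per library. Such a ratio also widens as counts fall, so closeness to the parent and number of counts cannot be told apart in it. The ranges of fold change did not follow the order of identity. These classes were compared as a description and without a test.

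The strand of the reads was that of the pseudogene in most members. On the strand-specific counts that the authors also deposited, 96.5%, 94.4% and 94.7% of the stranded counts of the set lay on the strand of the pseudogene in mutant replicates 1, 2 and 3, against 97.2%, 98.1% and 97.9% in the controls. For the parents the share was 99.5% to 99.7%. The shares of the set are weighted by counts, and Rpsa-ps10 held 59.9% and 43.8% of its counts in control replicates 2 and 3. Reads of a parent placed at its copy would fall on the same strand. The share therefore cannot tell them from reads transcribed from the copy. Of 78 members with at least 30 stranded counts, 71 had 95% or more on their own strand and 3 had less than 50%. Rpsa-ps10 had 7088 counts on its own strand and 8 on the other, and Rpl3-ps1 had 879 and 3. Among the exceptions, Rpl26-ps6 had 0 and 35 counts, and Rps7-ps2 had 14 and 22.

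**Figure D5:**
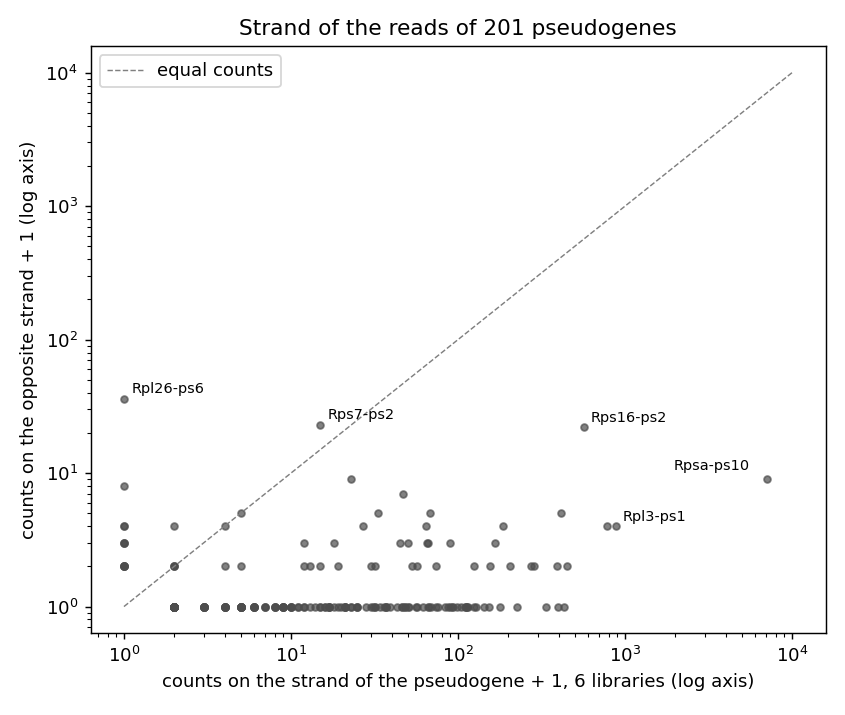
Counts on the opposite strand (y axis) against counts on the strand of the pseudogene (x axis), both plus 1 on log axes and summed over 6 libraries, for 201 members. Most points lie far below the dashed line of equal counts, and Rpl26-ps6 and Rps7-ps2 lie above it.

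The largest families by number of members held few counts. Rpl31, a large-subunit gene, had 15 counted copies with 331 counts in all, of which Rpl31-ps8, identical to the parent, held 155. Together they had 49, 31 and 48 counts in the mutants, against 78, 83 and 42 in the controls. The 13 copies of Rpl21, another large-subunit gene, had 27, 10 and 21 counts in the mutants, against 17, 13 and 13 in the controls, and none passed the filter. The 12 copies of Rps12, a small-subunit gene, had 29, 15 and 26 counts in the mutants, against 24, 31 and 22 in the controls, and none passed the filter either. In all 3 families the groups overlapped.

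The functional genes of the ribosome and of translation gave the frame for these values. Of 79 cytosolic ribosomal protein genes, 78 passed the filter, edgeR called 0 in either direction, and the median log2 fold change was -0.14, with 66 below 0 and 12 above. The 32 small-subunit genes had a median of -0.14 with 26 below 0, and the 46 tested large-subunit genes also had a median of -0.14, with 40 below 0. The smallest adjusted p was that of Rps26, which stood at 153, 137 and 143 CPM in the mutants, against 95.7, 94.6 and 78.0 CPM in the controls (log2 fold change 0.69, SE 0.13, edgeR adjusted p = 0.273). DESeq2 called Rps26 higher in mutants (0.69, adjusted p = 0.00422), as the 1 ribosomal protein gene it called. Its copy Rps26-ps1, which is outside the set, stood at 0.582, 0.331 and 0.585 CPM in the mutants, against 27.2, 31.3 and 21.7 CPM in the controls. Of the 57 parents, 48 had a fold change below 0 and 9 above, with a median of -0.15 and 0 called. Rpl35a averaged 82.96 ± 7.30 CPM in the mutants and 107 ± 11.2 CPM in the controls, and Rps25 averaged 197 ± 8.32 CPM in the mutants and 246 ± 18.4 CPM in the controls (SD, n = 3 each; edgeR adjusted p = 0.676 and 0.681).

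None of the other lists had a gene called by edgeR or DESeq2. Among 6 tested paralogues of ribosomal protein genes 5 were below 0 (median -0.16), and Rps27l averaged 58.4 ± 3.88 CPM in the mutants and 70.4 ± 8.04 CPM in the controls (SD, n = 3 each; edgeR adjusted p = 0.777). Among 20 translation factor genes 13 were below 0 (median -0.06), and the initiation factor subunit gene Eif3h averaged 119 ± 10.8 CPM in the mutants and 139 ± 11.9 CPM in the controls (SD, n = 3 each; edgeR adjusted p = 0.823). Among 20 genes of ribosome assembly 13 were above 0 (median 0.02), and Rrs1, which acts in assembly of the large subunit, averaged 23.8 ± 2.68 CPM in the mutants and 17.7 ± 3.34 CPM in the controls (SD, n = 3 each; edgeR adjusted p = 0.701).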

How the data were processed

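Gene-level read-pair counts from poly(A)-selected, directional libraries with paired reads of 61 bases were used, as the authors deposited them. Per the submitters' processing notes the build was GRCm39 and the tools were STAR 2.7.11b, DESeq2 1.50.2 with R 4.5.2, FastQC 0.12.1 and MultiQC 1.28. The version of the annotation was not given in the sources used here. In every library the deposited matrix equals the unstranded column of the deposited file. Entries that name no gene, 18.5% to 22.3% of pairs, were left out. They include the pairs that matched several places, 5.83% to 9.78% of pairs. The authors' deposited table gives log2 fold changes and adjusted p-values, and is quoted as such.

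Symbols were found for 52029 of 57010 IDs. Biotype, chromosome, overlaps and transcripts came from GENCODE M21 (GRCm38) by gene ID, so no coordinates are given. Alignments to the parent used blastn 2.17.0. The test was edgeR 4.0.16 in R 4.3.3 (filterByExpr with a minimum count of 10, TMM, robust quasi-likelihood F-test, mutants against controls, Benjamini-Hochberg over all genes), with calls at an adjusted p below 0.05. It was tested on simulated counts. Each animal is a biological replicate per the labels. Alternatives were RLE and upper-quartile scaling, 2 other filters, DESeq2 1.42.0, limma-voom (limma 3.58.1), sex as covariate, males only, a replicate block, strand-matched counts and each library left out. Named were the 10 members with the highest mean CPM, the 5 lowest and 5 highest fold changes among the other tested members (not all are reported here), the 3 largest families, the parents, Dysf and up to 4 genes per list. Rps15a-ps8, Rpsa-ps2, Rpsa-ps12, Rps13-ps2 and the members with reads on the opposite strand were chosen after their values were seen. The members and lists were chosen with earlier results of these data known. Plots used matplotlib 3.10.9.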

Additional observations from a re-analysis of the deposited data

How the results depend on the processing

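The count of members called was 0 under every setting tried except DESeq2, which called 4, and, over the libraries left out in turn, ranged from 0 to 3. The 3 were called without control replicate 1 (Rpl15-ps2, Rps15a-ps7 and Rpsa-ps10, background 0.238%). In all 3 that fit left out the control nearest to the mutants. The count of all genes called was 31, but 79 with no filter, 184 with DESeq2, 63 with control replicate 1 as the sole control (chosen after seeing the data), and 6 to 49 with a library left out. With edgeR it was 0 with sex as a covariate and 0 in males only (882 and 594 genes at an unadjusted p under 0.05, of which 3 and 1 were members). Correlations of same-numbered libraries were 0.173, -0.061 and 0.178, against -0.239 to 0.156 for differently numbered ones. These are too few to decide whether the replicate numbers pair the samples. The fit with the replicate block called 11 genes and 0 members. The median log2 fold change of the members, -0.27, was -0.40 with a filter of 1 CPM in 3 libraries and -0.41 to -0.10 with a library left out. The summed share, -7.63 per 1000 parent counts (mutant mean minus control mean), was -2.48 without Rpsa-ps10, -0.54 without the 9 members high in control replicate 2 or 3 (chosen after seeing the data), and ranged from -11.1 to -4.55 with a library left out, the extremes being without control replicates 1 and 2.

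Of the single-gene values, 545 kept direction and side of the threshold, 6 passed it under an alternative, and 5, all of them Dysf, no longer passed it. With control replicate 1 as the sole control the sign turned for Rpsa-ps9 (0.64), Rpl19-ps11 (0.037), Rpl3 (0.14) and Rpsa (-0.070). It also turned for Rpl30-ps1 with limma-voom (-0.23) and for Rpl19 with the sex covariate (0.0095) and in males only (0.013). With a library left out, Rpl30-ps1 ranged from -0.36 to 0.80, Rpl19 from -0.22 to 0.035 and Rpl3 from -0.56 to 0.30. The cause was not tested. Members with under 10 counts carry no readable fold change at this depth.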
